A study of Homo sapiens with 6 samples.

Results

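The mRNAs that encode 10 subunits of the translation initiation factor eIF3 (EIF3A, EIF3B, EIF3C, EIF3D, EIF3E, EIF3F, EIF3G, EIF3H, EIF3I and EIF3L) were examined for cross-linking to eIF4B. They were chosen by gene name from tables that name 22125 genes, of which 13668 are protein-coding in GENCODE release 44, and they are 10 of the 13 eIF3 subunits. The other subunits, EIF3J, EIF3K and EIF3M, are used only for comparison. iCLIP, which maps the nucleotide at which a UV cross-linked protein stops reverse transcription, was carried out with an antibody to eIF4B in DoHH-2, a cell line of diffuse large B-cell lymphoma (DLBCL), and in the control B-cell line GM01953. No treatment or genetic change is named for either line, and the labels give 4 replicates for DoHH-2 and 2 for GM01953. The replicates of a line were pooled before the cDNAs at each nucleotide were counted. Every mRNA therefore has 1 value per cell line, with no SD and no test between the lines, and 1 cell line stands for each cell type.

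DoHH-2 held 2033156 cDNA counts at 1179243 positions and GM01953 held 167197 counts at 78474 positions, a difference in depth of 12.2 times. All intervals below are 95% intervals that cover counting error only. A count of 0 allows up to 3 counts. Of 7 B-cell marker genes, 6 had counts in DoHH-2 (CD22 had 0) and all 7 had counts in GM01953, summing to 406 and 1884 counts per 1000000 counts of the library (CPM), whereas 6 T-cell and 5 monocyte markers had 0 counts in both lines. The tables hold no mRNA abundance, so more mRNA in a cell and more eIF4B on each molecule cannot be told apart in any level given here.

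eIF3 is the largest of the initiation factors. It binds the small ribosomal subunit, helps to load it onto the mRNA and contacts eIF4G at the cap. eIF4B stimulates the helicase eIF4A, which unwinds the 5′ end of the mRNA for the ribosome, and eIF4B is known to contact the eIF3A protein. The values below concern the mRNAs of the subunits, and not the eIF3 proteins.

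The nucleotides with the highest counts are shown first. In DoHH-2 the highest nucleotide of an mRNA held from 1.79% of its exonic counts in EIF3A to 24.3% in EIF3F. Each window below is 21 nt of the spliced mRNA from GRCh38, written 5′ to 3′, with the cross-linked nucleotide in capitals. EIF3B and EIF3A are shown with the highest nucleotide of each cell line. EIF3F is shown because its highest nucleotide is the last base before the start codon. EIF3G is shown because its nucleotide had at least 2 counts in both lines, and EIF3L because its nucleotide lies just inside the coding sequence. Of tied nucleotides the one nearest the 5′ end is shown. In GM01953 3 nucleotides of EIF3B tied at 3 counts, and in DoHH-2 2 of EIF3G tied at 10.
EIF3B, DoHH-2, exon 2, coding sequence (chr7:2360816-2360836, plus strand): actcaaaaatGtcatccacaa
EIF3B, GM01953, exon 1, 7 nt before the start codon (chr7:2354905-2354925, plus strand): taggcagcgtTgggcccatgc
EIF3A, DoHH-2, exon 6, coding sequence (chr10:119069619-119069639, minus strand): gtggaagataTtcacgggcta
EIF3A, GM01953, exon 22, 3′ UTR (chr10:119035577-119035597, minus strand): ttaagtggttGatacgtacct
EIF3F, DoHH-2, exon 1, base before the start codon (chr11:7987342-7987362, plus strand): ttctcgacaaGatggccacac
EIF3G, DoHH-2, exon 3, coding sequence (chr19, nucleotide 10119163, minus strand, window across an exon junction): cgacaaatgtGtcaccagcga
EIF3L, DoHH-2, exon 2, coding sequence (chr22, nucleotide 37850018, plus strand, window across an exon junction): gtctgaggcgGcttatgaccc

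In the EIF3F window the start codon follows directly on the capital. The nucleotide at 7987352 held 26 counts in DoHH-2 and 0 in GM01953. The EIF3B nucleotide at 2360826 held 44 counts in DoHH-2, the highest count on any of the 10 mRNAs, and 1 in GM01953. Both the EIF3F and EIF3B nucleotides are G, and the next base is A in EIF3F and T in EIF3B. Over all exonic counts of the 10 mRNAs in DoHH-2, T was the cross-linked base at 39.5% and the following base at 41.5%, against 24.97% T among all their nucleotides. G was the following base at only 9.27% of counts, against 24.4% of nucleotides. In GM01953 the following base was T at 43.1% and G at 7.19%. In other protein-coding genes without histones, introns included, it was T at 48.5% of counts in DoHH-2 and 44.7% in GM01953. UV cross-linking is known to favour uridine, and its part in these shares was not tested.

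Summed over the 10 mRNAs, DoHH-2 had 4072 counts at 2625 positions, which is 2003 CPM (1942–2065, exact Poisson). GM01953 had 179 counts at 103 positions, or 1071 CPM (919–1239). The share of the library was 1.87 times as high in DoHH-2 (1.61–2.19, exact conditional binomial). EIF3B alone gave 1376 of the DoHH-2 counts and 27 of the GM01953 counts, a ratio of 4.19, so the summed ratio leans on this mRNA. The sum without EIF3B was not taken. Exons of the MANE Select transcript, the reference transcript of each gene, held 84.5% of these DoHH-2 counts (83.4–85.6) and 85.5% of the GM01953 counts (79.6–89.9). For all protein-coding genes these shares were 78.9% and 77.2%. Introns held 428 counts in DoHH-2 (10.5%, 9.61–11.5) and 15 in GM01953 (8.38%, 5.14–13.4), shares whose intervals overlapped. The strand opposite to these exons held 3 counts in DoHH-2, at EIF3G, and 0 in GM01953.

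A position with a false discovery rate (FDR) below 0.05 in the authors' tables is called a binding site here, and a gene is called bound when its sites hold more than 20 counts. In DoHH-2, 9 of the 10 mRNAs were bound, against 33.3% of the protein-coding genes with a count. The exception was EIF3C, with 6 counts at 2 sites. In GM01953 only EIF3A was bound, with 30 counts at 5 sites, against 8.34% of protein-coding genes. EIF3B followed with 15 counts at 6 sites and EIF3E with 12 counts at 5 sites. The cut was the same at both depths. In GM01953 only EIF3A and EIF3B had more than 20 counts over all positions, so no other member could be called bound there. The 10 mRNAs together held 1179 sites with 2510 counts in DoHH-2 and 33 sites with 96 counts in GM01953.

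Levels between mRNAs were compared as exonic CPM per kb of mRNA. In DoHH-2 the median over the 10 mRNAs was 53.9. The median mRNA of the group stood above 95.7% of 19061 coding genes, of which 44.2% had no exonic count. In GM01953 the median was 35.8 and the group's median mRNA stood above 92.7% of coding genes. EIF3B was highest in DoHH-2 at 185 (175–196), followed by EIF3D at 76.9, EIF3E at 66.9, EIF3I at 66.8, EIF3G at 54.0, EIF3A at 53.8 and EIF3L at 53.1. EIF3H at 26.6, EIF3C at 9.30 and EIF3F at 7.61 were lowest. The intervals of EIF3B and EIF3H each stood clear of their neighbours in this order. From EIF3D to EIF3L each interval overlapped the next, as did those of EIF3C and EIF3F. The place of EIF3C rests on the assignment of reads between it and its near-identical copy EIF3CL. With the exonic counts of both set on the length of EIF3C, the level was 32.1 in DoHH-2 (27.7–37.0), which overlaps that of EIF3H, and 16.4 in GM01953 (7.10–32.4). In GM01953 the first 5, EIF3D, EIF3B, EIF3E, EIF3G and EIF3A, lay between 42.2 and 47.7 with overlapping intervals, and EIF3F was lowest at 7.78.

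The annotated length of the 3′ UTR enters this order. The MANE Select mRNA of EIF3F has a 3′ UTR of 5830 nt and that of EIF3H one of 2876 nt. More than 50 nt past the stop codon, EIF3F held 3 of 107 exonic DoHH-2 counts and EIF3H 41 of 214. These are 0.519 and 14.5 counts per kb. In the coding sequence more than 50 nt from the start and stop codons, the values were 20.7 and 129. From start codon to stop codon, EIF3H rose in the order to 71.1 CPM per kb in DoHH-2 (60.2–83.3) and EIF3F to 29.8 (22.97–37.9). EIF3B stayed highest at 183. EIF3C stood at 8.97 alone and at 30.9 with the counts of EIF3CL added (26.4–35.8), next to EIF3F. In GM01953 all values from start to stop codon lay between 32.7 and 50.8 except that of EIF3C, at 6.54 alone and 8.72 with EIF3CL, and the intervals of the other 9 mRNAs overlapped.

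EIF3A encodes the largest subunit, the scaffold that contacts eIF4B. The gene lies on the minus strand of chromosome 10 of GRCh38, from 119033670 to 119080817, and its mRNA of 22 exons is 6659 nt long. It had 854 counts in DoHH-2, or 420.04 CPM, and 56 in GM01953, or 335 CPM, the highest share of the 10 in GM01953. The ratio was 1.25 (0.956–1.67). In DoHH-2 the exonic counts were spread over 525 positions in all 22 exons, and the highest position held 1.79% of them. In GM01953 a single nucleotide of the 3′ UTR, 119035587, held 11 of 47 exonic counts (23.4%). It lies 452 nt past the stop codon, and DoHH-2 had 0 counts at it and 1 within 10 nt. The next nucleotide in GM01953, 119073932 in exon 2, had 5 counts, and it was also the next one in DoHH-2, with 10. An intron of EIF3A holds the small nucleolar RNA SNORA19, and positions also listed under SNORA19 held 7 counts at 1 position in GM01953 and 6 counts at 5 positions in DoHH-2. Without them the ratio of EIF3A was 1.42 (1.07–1.94), an alternative chosen after seeing the data.

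EIF3B encodes a subunit with an RNA recognition motif and a WD-repeat propeller. The gene lies on the plus strand of chromosome 7 from 2354086 to 2380745. It had 1376 counts in DoHH-2 (677 CPM) and 27 in GM01953 (161 CPM), a ratio of 4.19 (2.87–6.38). This was the largest ratio of the 10, and over 10 alternative settings it lay between 3.33 and 6.01. The mRNA ranked 230 of 19061 coding genes by level in DoHH-2 and 1041 in GM01953. In DoHH-2 counts fell on 19.96% of the nucleotides of this mRNA, more than on any of the other 9, and 35 positions held 5 or more counts. The highest nucleotide, 2360826 in exon 2, held 3.77% of the exonic counts. The next, 2380699, held 27 counts and lies in the 3′ UTR, 510 nt past the stop codon. EIF3B was the mRNA of the group with the largest share in the 3′ UTR apart from EIF3H, at 17.1% (15.003–19.3).

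EIF3G and EIF3I encode the subunits that bind EIF3B, the first with an RNA recognition motif and the second a WD-repeat protein. EIF3G lies on the minus strand of chromosome 19 from 10115014 to 10119918. It had 147 DoHH-2 counts and 8 GM01953 counts, a ratio of 1.51 (0.747–3.57). All 8 GM01953 counts fell on 3 nucleotides, each of which also had counts in DoHH-2. One of these, 10119163 in exon 3, had 10 counts in DoHH-2 and 2 in GM01953. The others, 10115573 and 10115566 in exon 10, had 3 counts each in GM01953 and 1 each in DoHH-2. EIF3I lies on the plus strand of chromosome 1 from 32221077 to 32245397, with 208 and 12 counts and a ratio of 1.43 (0.799–2.80). Its highest nucleotide was 32226252 in exon 5 with 8 counts in DoHH-2, and in GM01953 it was 32226226 in the same exon with 3 counts, where DoHH-2 had 2.

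EIF3D encodes the subunit that can itself bind the cap of some mRNAs. The gene lies on the minus strand of chromosome 22 from 36510855 to 36529184. It had 368 DoHH-2 counts and 20 GM01953 counts, a ratio of 1.51 (0.965–2.51). Its highest nucleotides were 36526048 in exon 2 and 36511746 in exon 14, with 7 counts each, or 2.38% of 294 exonic counts. In DoHH-2, bases more than 50 nt before the start codon of EIF3D held 8.50% of its exonic counts (5.83–12.3). This share was 4.81% in EIF3A, 1.82% in EIF3C and 0.428% in EIF3B, and the other members have no such bases. Over the whole 5′ UTR, EIF3D had 35 of 294 exonic counts. The share was larger in EIF3F, with 39 of 107, and in EIF3E, with 44 of 275.

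EIF3C, EIF3E and EIF3L encode subunits with a PCI domain, which with EIF3A and the MPN-domain subunits form the core of eIF3. EIF3E had 319 DoHH-2 counts and 17 GM01953 counts, a ratio of 1.54 (0.949–2.68). Exon 1, which is 5.19% of the mRNA, held 126 of its 275 exonic counts in DoHH-2 and 11 of 15 in GM01953. EIF3L, on the plus strand of chromosome 22 from 37848868 to 37889407, had 319 and 13 counts, a ratio of 2.02 (1.16–3.83). Of the DoHH-2 counts of EIF3L, 69 at 55 positions were also listed under the gene RP5-1014D13.2, and without such positions the ratio was 1.71 (0.963–3.36).

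EIF3C could not be separated from its copy. The gene lies on the plus strand of chromosome 16 from 28688558 to 28735727, and a near-identical gene, EIF3CL, lies on the minus strand of the same chromosome from 28379579 to 28403841. EIF3C had 56 DoHH-2 counts and 6 GM01953 counts, a ratio of 0.768 (0.331–2.18), and it was the only member with a ratio below 1 in this setting. EIF3CL had 147 and 2 counts. The 31 nt that follow the cross-linked position occurred more than 1 time in the genome for 55 of the 56 EIF3C counts and 145 of the 147 EIF3CL counts in DoHH-2, and for all 8 counts in GM01953. Summed over both genes the ratio was 2.09 (1.04–4.90), with 203 counts in DoHH-2 and 8 in GM01953.

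EIF3F and EIF3H encode the MPN-domain subunits. EIF3F lies on the plus strand of chromosome 11 from 7970251 to 8001862. It had 118 DoHH-2 counts and 9 GM01953 counts, a ratio of 1.08 (0.549–2.42) that was above 1 in 7 of 10 alternative settings. Exon 1, which is 5.49% of its mRNA, held 88.8% of the exonic counts in DoHH-2 and all 9 in GM01953. EIF3H, on chromosome 8, had 307 and 11 counts, a ratio of 2.30 (1.26–4.65). Introns held 87 of its DoHH-2 counts, and 58 of all its DoHH-2 counts (18.9%) preceded a 31-nt word found more than 1 time in the genome, with 16 and 15 at the leading intron positions of this kind. On exons alone the ratio of EIF3H was 1.76 (0.938–3.72). With words found 1 time only, the ratio was 1.86 for EIF3H and 1.92 for EIF3L.

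The 10 ratios were read against a fold of 2. Higher by more than 2-fold in DoHH-2 were 3 of 10 (EIF3B, EIF3H and EIF3L), against 32.3% of the 9416 coding genes with at least 20 counts over both lines, a share near that of all genes. Higher by more than 2-fold in GM01953 were 0 of 10, against 14.2%. The median ratio of the members was 1.51, against 1.28 for the coding genes tested, and 1 of 10 had a ratio below 1, against 39.0% of the genes. This count ranged from 0 to 2 over the alternative settings, with EIF3C, EIF3F or EIF3G below 1. EIF3C enters these counts without its copy EIF3CL, from which it could not be separated. Summed over both genes its ratio was 2.09 (1.04–4.90), past the fold of 2. The intervals of EIF3B, EIF3H and EIF3L left out 1, and those of the other 7 included it. Of the members, only EIF3B stayed above 2 in all 10 alternative settings, some of which leave the positions of a given member as they are. EIF3H did so in 7 and EIF3L in 4.

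Along the mRNA, counts were placed in 5 regions, where a codon region covers the start or stop codon and 50 nt on both of its sides. Of 3442 exonic counts in DoHH-2, the coding sequence (CDS) outside the codon regions held 67.4% (65.8–68.9), the start codon region 15.5% (14.3–16.7), the 3′ UTR 11.6% (10.6–12.7), the stop codon region 3.60% (3.03–4.28) and the 5′ UTR 1.92% (1.51–2.43). Of 153 exonic counts in GM01953, the CDS held 63.4% (55.5–70.6), the start codon region 20.3% (14.7–27.3), the 3′ UTR 13.7% (9.16–20.1), the stop codon region 1.96% (0.669–5.61) and the 5′ UTR 0.654% (0.115–3.61). For each region the intervals of the cell lines overlapped. The 3′ UTR made up 41.3% of the nucleotides of the 10 mRNAs, so its density was 0.281 times the mean over the mRNA in DoHH-2 and 0.333 times in GM01953. The start codon region had the highest density of the 5 regions in both lines, 5.66 and 7.41 times the mean. Over all coding genes without histones the start codon region held 9.34% of counts in DoHH-2 and 12.8% in GM01953, at 3.52 and 4.82 times the mean density. The CDS held 43.97% and 44.8%, and the 3′ UTR 32.8% and 22.9%, at 0.708 and 0.495 times the mean density. Region lengths for these densities were summed over all such genes, also those with no exonic count, so they are not matched to those of the members.

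The densities of the 5 regions were also compared within each mRNA, and a region was called dominant when it held at least 50% of the summed densities. In DoHH-2 the start codon region was dominant in 5 of 10 (EIF3E, EIF3F, EIF3H, EIF3I and EIF3L), against 18.2% of 7597 coding genes with more than 20 exonic counts. It held 96.7% of the summed density in EIF3F, 91.5% in EIF3E, 73.3% in EIF3L, 66.3% in EIF3H and 62.9% in EIF3I. No region was dominant in the other 5 (EIF3A, EIF3B, EIF3C, EIF3D and EIF3G), against 60.7% of coding genes. A dominant 5′ UTR was found in 0 of 10 (11.7% of coding genes), as were a dominant CDS (1.83%), stop codon region (4.37%) and 3′ UTR (3.19%). The start codon region came closest to dominance in EIF3B, at 48.5%, and held 41.5% in EIF3G. In GM01953 it was dominant in EIF3A, EIF3B, EIF3C, EIF3E, EIF3F and EIF3H, on 2 to 11 counts in the region. EIF3I and EIF3L had 0 counts in the region there, of 7 and 12 exonic counts.

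The length of the 5′ UTR moved with the DoHH-2 call. In all 5 mRNAs with a dominant start codon region in DoHH-2 the 5′ UTR was 35 nt or shorter. It was 15 nt in EIF3E, 16 nt in EIF3F, 26 nt in EIF3H, 31 nt in EIF3L and 35 nt in EIF3I. The start codon region then reaches to the first nucleotide and no 5′ UTR region is left. EIF3G, with 40 nt, also had none. The 4 other members had 5′ UTRs of 85 to 141 nt. Among coding genes with a 5′ UTR of at most 50 nt, the start codon region was dominant in 43.6%, and among those with a longer one in 12.1%. The part of 5′ UTR length in the members' calls was not tested further.

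Close to the start codon the mRNAs differed from each other. The base just before the start codon held 44 of the 533 start region counts in DoHH-2, or 8.26% (6.21–10.9), against 2.24% in the start regions of other coding genes. Of these 44 counts, 26 were on EIF3F, 12 on EIF3E and 3 on EIF3H, so the share rests on EIF3F and EIF3E. In GM01953 it held 0 of 31 counts, which allows a share of up to 9.68%, so a difference between the lines was not detectable at this depth. On EIF3I, 58 of the 59 start region counts lay on the start codon or downstream of it, and 1 lay upstream. In other coding genes 49.1% of start region counts lay upstream. On EIF3L the highest nucleotide lay 36 nt into the coding sequence with 13 counts, and 33 of 64 start region counts lay upstream of the codon.

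**Figure D1:**
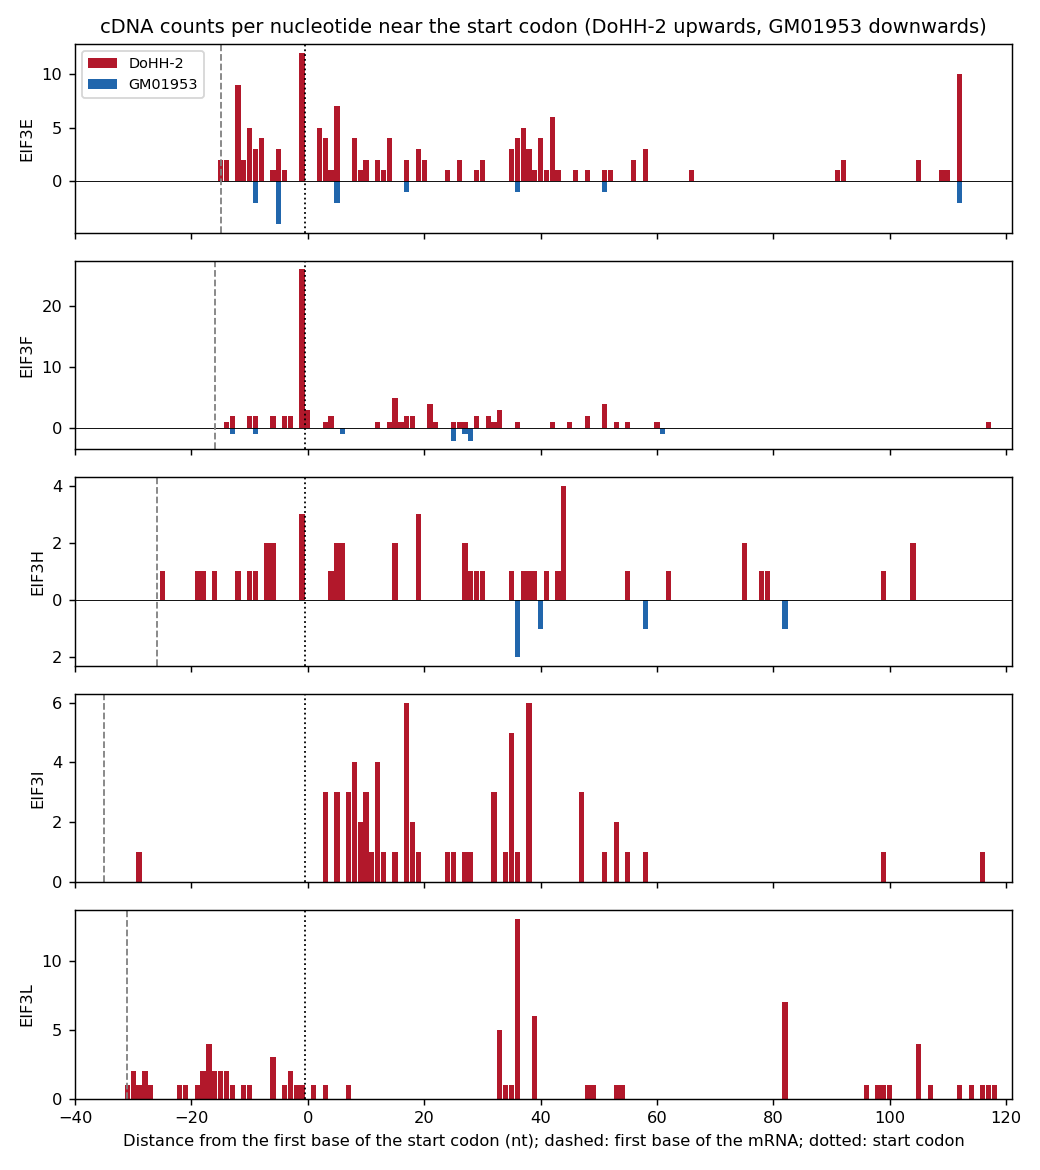
Counts at each nucleotide near the start codon of the 5 mRNAs with a dominant start codon region in DoHH-2. DoHH-2 is drawn upwards in red and GM01953 downwards in blue, against the distance in nt from the first base of the start codon (dotted line). The first base of the mRNA is dashed. The base before the start codon is the highest bar for EIF3E (12 counts) and EIF3F (26 counts), and EIF3I has 1 count upstream of the start codon.

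The 5′ ends of 8 of the 10 MANE Select mRNAs open with a run of pyrimidines of 4 to 12 nt, and EIF3B and EIF3I open with none. The share of all coding genes with such a run was not counted, so these runs cannot be called a trait of this group. Such a run, where long enough and directly at the cap, marks mRNAs whose translation responds to growth signals, and several eIF3 subunits are known for it. The run was 12 nt in EIF3H, 10 nt in EIF3D and EIF3F, 9 nt in EIF3E, 7 nt in EIF3A and EIF3C, 6 nt in EIF3L and 4 nt in EIF3G. The first 30 nt of the mRNA held 75 counts in EIF3E, 46 in EIF3F, 32 in EIF3L, 17 in EIF3D, 14 in EIF3H and 13 in EIF3G in DoHH-2. They held 8 in EIF3A, 4 in EIF3B and 1 each in EIF3C and EIF3I. In EIF3E, EIF3F and EIF3H, with 5′ UTRs of 15, 16 and 26 nt, the first 30 nt take in the start codon. The 46 counts of EIF3F thus include the 26 at the base before its start codon. In GM01953 they held 8 counts in EIF3E and 3 in EIF3F, and 0 in the other 8 mRNAs. These annotated ends were not checked against the start sites used in these cells.

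Counts of GM01953 often fell on the same nucleotides as those of DoHH-2. Of its 153 exonic counts, 91 (59.5%, 51.6–66.9) lay on nucleotides that also had a count in DoHH-2, although these made up 6.47% of the nucleotides of the 10 mRNAs. In coding genes without histones that had an exonic count in GM01953, the shares were 40.4% of counts and 2.01% of nucleotides. Within 2 nt, 75.8% of the GM01953 counts of the members lay near a DoHH-2 position, against 20.7% of the nucleotides of the 10 mRNAs. At the depth of GM01953, DoHH-2 would be expected to share 13.4% of the GM01953 counts. The share was 13 of 15 counts in EIF3E, 19 of 24 in EIF3B and 26 of 47 in EIF3A, and 1 of 6 in EIF3C.

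With at least 2 counts in each line, 11 nucleotides were shared, 4 on EIF3E, 3 on EIF3A and 1 each on EIF3B, EIF3D, EIF3G and EIF3I. The most counts in both lines together were at 119073932 in exon 2 of EIF3A, with 10 counts in DoHH-2 and 5 in GM01953. On EIF3B it was 2354915, 7 nt before the start codon, with 9 and 3 counts. On EIF3E 3 of the 4 lay within 9 nt of the first base of the start codon, with 3, 3 and 7 counts in DoHH-2 and 2, 4 and 2 in GM01953.

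GM01953 counts were stacked on fewer positions. Thinned in expectation to the depth of GM01953, DoHH-2 would have 334.9 counts at 308 positions of the 10 mRNAs, or 1.09 counts per position. GM01953 had 179 counts at 103 positions, or 1.74 per position. In the whole libraries, 83.9% of DoHH-2 positions and 60.8% of GM01953 positions had a single count, and the part of the libraries in the members' values was not tested.

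The eIF3 subunits that were not members had 202 and 6 counts (EIF3J, DoHH-2 and GM01953), 381 and 28 (EIF3K) and 379 and 22 (EIF3M). Their ratios were 2.77 (1.25–7.63), 1.12 (0.762–1.71) and 1.42 (0.922–2.29). The short mRNA of EIF3K had 233 CPM per kb in DoHH-2 and 209 in GM01953, above EIF3B in both lines. The start codon region was dominant in EIF3K and EIF3M, with 61.8% and 58.8% of the summed density in DoHH-2. EIF3J had no dominant region, and 60.7% of its exonic counts lay in the 3′ UTR.

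Of a list of 29 other initiation factors, 10 were higher by more than 2-fold in DoHH-2, near the 32.3% of coding genes tested. In GM01953 1 was higher by more than 2-fold, against 14.2%. In DoHH-2 25 were bound, against 33.3% of protein-coding genes with a count, and in GM01953 6, against 8.34%. The cut was the same at unlike depth. Their median ratio was 1.56, against 1.28 for the coding genes tested, and 7 had a ratio below 1, against 39.0%. EIF4B itself, the factor precipitated here, had 165 DoHH-2 counts and 17 GM01953 counts, a ratio of 0.798 (0.484–1.40). EIF4A1, which encodes the helicase that eIF4B stimulates, had 771 and 26 counts, a ratio of 2.44 (1.65–3.76), and all of them were also listed under another gene. EIF4G1, the scaffold that joins eIF4A to eIF3, had 1612 and 102 counts, a ratio of 1.30 (1.06–1.60). The highest level of the list was that of EIF5A, at 286 CPM per kb in DoHH-2 and 473 in GM01953. The lowest was that of EIF4E, the cap-binding protein, at 3.65 in DoHH-2 and listed at 0 on exons in GM01953.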

How the data were processed

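eIF4B iCLIP libraries of DoHH-2 (4 replicates) and GM01953 (2 replicates) were used as deposited, in 1 table per cell line. The counts are whole cDNA counts per cross-link position that the authors made by removing PCR duplicates, mapping to GRCh38 with HISAT2 (named in the processing notes, version not given in the sources used here), pooling replicates and counting with iCount, without normalization. The authors also deposited an FDR (an adjusted p-value) per position, which iCount derives by permuting counts within a gene and which depends on depth.

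A position listed under several genes was counted 1 time per gene and 1 time in the library total. Deposited positions count from 0, as the base profiles of the strands showed, and are given here from 1. Positions were placed on MANE Select transcripts of GENCODE release 44. Count shares have exact Poisson intervals, ratios exact conditional binomial intervals and percentages Wilson intervals (scipy 1.17.1). Regions shorter than 10 nt had no density. With 1 pooled value per line, a fold of 2 was used in place of a test for genes with at least 20 counts over both lines. Words of 31 nt were searched on both strands of 3209286105 bases. The steps were tested on simulated data. Named genes are the members, the other eIF3 subunits, EIF3CL, and of 29 initiation factors EIF4B, EIF4A1, EIF4G1 and those with the highest and lowest level. Members, lists and rules were chosen with earlier results of these data known, and the B-cell, T-cell and monocyte markers after the tables had been read. Replicates could not be compared.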

Additional observations from a re-analysis of the deposited data

Results flagged for a closer look

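EIF3CL, the near-identical copy of EIF3C, is outside the 10 members and held 147 counts in DoHH-2 and 2 in GM01953. It was picked out because this signal lies in data that the sums over the members do not use. Of the DoHH-2 counts, 145 preceded a 31-nt word found more than 1 time in the genome, so the split between EIF3C and EIF3CL cannot be read from these positions. With EIF3C left out, the ratio of the summed share was 1.91.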

How the results depend on the processing

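The summed share was higher in DoHH-2 in every setting run, none of which left out EIF3B. Of the 94 alternative values of the sums, counts of members, region shares and shared counts, 55 stayed within the counting interval, or for counts of genes within 1.5 times. Only at positions with an FDR below 0.05, the summed share was 2826 CPM in DoHH-2, its ratio 2.74 and 6 members were more than 2-fold higher in DoHH-2. Relative to counts on coding genes the summed shares were 2352 CPM in DoHH-2 and 1364 in GM01953, without histone genes 2835 and 1553, on MANE Select exons alone 1693 and 915, and with each position counted 1 time 2226 and 1313. The next settings were chosen after seeing the data. With 31-nt words found 1 time in the genome the share was 1917 in DoHH-2 and 1 member, EIF3B, was more than 2-fold higher there. Without the highest position of each member the shares were 1928 and 843 and the ratio 2.29. In GM01953, 0 members were bound at more than 50 counts and 2 whatever the FDR.

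Region shares in DoHH-2 became 69.3% (CDS) and 2.93% (stop codon region) on the longest coding transcript. With codon regions of 25 nt they were 3.46% (5′ UTR), 10.02% (start), 71.8% (CDS), 1.74% (stop) and 12.9% (3′ UTR), and in GM01953 13.1% (start) and 0% (stop). At sites alone they were 20.7% (start), 63.4% (CDS) and 2.53% (stop) in DoHH-2, and 0% (5′ UTR) and 0% (stop) in GM01953. With every member weighted equally they were 23.4% (start), 61.7% (CDS), 4.74% (stop) and 8.53% (3′ UTR) in DoHH-2 and 8.51% (3′ UTR) in GM01953. The shared counts were 75.8% within 2 nt, where 20.7% of nucleotides lie as near to a DoHH-2 count, and 13.4% expected at equal depth. Among single members, sites alone moved the ratio to 0.126 for EIF3C, 5.16 for EIF3D and 6.31 for EIF3H, which rest on 5, 4 and 4 counts in GM01953. The ratio changed sides of 1 for members whose interval included 1. EIF3G fell to 0.759 at sites alone. EIF3F fell to 0.551 with each position counted 1 time, 0.978 on MANE Select exons and 0.994 relative to coding genes. EIF3C rose to 1.09 with each position counted 1 time and 1.43 without its highest position. The cause of these moves was not tested.

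No paired analysis was possible because the replicates were pooled before counting, and no replicate was left out. The 179 counts of GM01953 limit every ratio, and the interval of the summed ratio was 1.61–2.19.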
